A study of Mus musculus with 12 samples.

Results

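The tricarboxylic acid (TCA) cycle and mitochondrial fatty acid oxidation were followed through 37 genes, chosen by symbol from the count tables, which list 51826 gene identifiers for the forelimb and 55401 for the cultures. All 37 were present in both and passed the filter on low counts in both, with at least 106 reads in every library. By role, 7 act in pyruvate entry and 10 in the TCA cycle, and 2 encode the nucleotide-specific subunits of succinyl-CoA ligase. A further 3 belong to the malate-aspartate shuttle, 3 to carnitine transport, 4 are acyl-CoA dehydrogenases, 5 act in the later steps of beta-oxidation, and 3 form the electron transfer flavoprotein branch. The last 4 of these classes, 15 genes, are called the fatty acid oxidation genes below.

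Mitochondria oxidise pyruvate and fatty acids to acetyl-CoA, which citrate synthase condenses with oxaloacetate to start the TCA cycle. The cycle passes electrons to NADH and FADH2, and 1 of its steps, catalysed by succinyl-CoA ligase, makes ATP or GTP directly, depending on which beta subunit is bound to the shared alpha subunit. Osteoclasts, the multinucleated cells that resorb bone, are known for their many mitochondria.

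The libraries came from mouse, with 2 in each of 6 groups. Forelimbs at E12.5 were WT or carried the Impdh2 Prx-cKO, a conditional knockout that by its name uses a Prx-driven Cre, which acts in limb bud mesenchyme and leaves the ectoderm, blood and muscle lineages of the limb with the gene. Marrow-derived cultures were WT or Impdh2 LysM-cKO, by its name a Cre driven from the lysozyme M locus, which acts in myeloid cells. Impdh2 encodes the enzyme that commits inosine monophosphate to guanine nucleotide synthesis, and GTP is 1 product of the ligase step above. The cultures were titled R40D3 or R0D3. All 8 share the same cell type and treatment labels and 1 protocol, in which marrow was grown for 3 days with an M-CSF source equivalent to 20 ng/ml and then given 40 ng/ml RANKL, the osteoclast-inducing cytokine. That R40 and R0 mark RANKL doses is an inference, so the titles serve as names. Age and pooling of the mice were not given in the sources used here, nor whether the replicates of a group came from separate animals, so the p-values below measure only the spread between these libraries.

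Totals were 28892215 to 69466572 counts in the forelimb and 16009146 to 19221865 in the cultures, and replicates of every group differed by more than counting noise. Impdh2 stood at 260 and 272 CPM, counts scaled to a common library size in the WT forelimbs against 169.7 and 199 in Prx-cKO. In the cultures it lay between 22.3 and 28.2 CPM in WT and between 7.03 and 8.38 CPM in LysM-cKO. Its log2 fold change was called at R40D3 (-1.73, adjusted p = 0.0386) and at R0D3 (-1.81, adjusted p = 0.0323), and not in the forelimb (-0.53, adjusted p = 0.443). Summed over 11 osteoclast markers, the level was 326 to 471 CPM in the R0D3 libraries, 26470 and 39000 CPM in WT R40D3, and 13270 and 24990 CPM in LysM-cKO R40D3. The 2 LysM-cKO replicate 2 libraries stood apart in 8 stromal fibroblast markers, which summed to 508 and 432 CPM there and to 1215 CPM or more in each other culture.

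Per length of the longest consensus coding transcript, Mdh2, the mitochondrial malate dehydrogenase, was the highest of the 37 in all 6 groups, at 72.9 and 358.6 RPKM, the reads per length and library total in WT R0D3 and WT R40D3. Pcx, the pyruvate carboxylase that makes oxaloacetate, was the lowest in all 4 culture groups, at 1.68 RPKM in WT R0D3 and 2.03 RPKM in WT R40D3. Cpt1a, the carnitine palmitoyltransferase at the entry of fatty acids into mitochondria, was the lowest in both forelimb groups, at 5.24 RPKM in WT and 9.11 RPKM in Prx-cKO, but held the 19th to 29th place in the cultures. Scaled by the union of all exons, Mdh2 ranked 2nd to 4th, Pcx stayed the lowest in the cultures, and Cpt1a was the lowest in the WT forelimb and 35th in Prx-cKO, so the order of neighbours depended on the transcript model.

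R40D3 was compared with R0D3 within each genotype. In WT, 26 of 37 genes were higher at R40D3 and 0 lower (edgeR, adjusted p under 0.05), against 11.4% of the 14030 genes tested that were higher and 5.52% that were lower. The median log2 fold change of the 37 was 0.77, beside 0.01 over all genes tested. In LysM-cKO, 21 were higher and 0 lower, against 6.99% and 3.15% of all genes, with a median of 0.66. In both genotypes 35 of 37 were above 0 and 2 below, beside 51.2% and 48.8% of all genes. The R40D3 libraries were above both R0D3 libraries for 33 genes in WT and 31 in LysM-cKO, and 0 were below; for all genes these shares were 32.9% above and 29.2% below in WT, and in the LysM-cKO cultures 27.3% and 22.5%. The TCA cycle class, which leaves out the ligase beta subunits, had 10 of 10 genes called in both genotypes. Not all of these 10 stayed called under every alternative fit. The fatty acid oxidation genes were called in 7 of 15 in WT and 3 of 15 in LysM-cKO. The replicate numbers pair the cultures, and with the number as a block 29 genes in WT and 26 in LysM-cKO were called higher and 0 lower, against 16.7% and 11.6% of all genes for WT, and 13% and 8.22% for LysM-cKO. The summed osteoclast markers moved with this comparison, as given above. Summed macrophage markers (10 genes) were 38600 and 43760 CPM in WT R0D3 against 27050 and 27730 CPM in WT R40D3, and in LysM-cKO 24240 and 24780 against 20510 and 18570 CPM. Most of each sum was Lyz2, the lysozyme M gene, at 30000 and 35250 against 18950 and 20330 CPM in WT. Lyz2 had 15400 and 16860 against 11770 and 11300 CPM in LysM-cKO. By its name the LysM-cKO Cre sits at this locus, so the sums do not by themselves compare macrophage content between the genotypes. Adgre1, another of the 10, had 1299 and 1419 against 1150 and 1036 CPM in WT, and 1306 and 1374 against 1427 and 1294 CPM in LysM-cKO. The share of counts from mitochondrially encoded genes was 1.72% to 2.099% in the R0D3 libraries and 2.44% to 2.87% in the R40D3 libraries. The part of these in the comparison was not tested. In such bulk libraries, fewer cells of a type and less RNA per cell cannot be told apart.

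**Figure D1:**
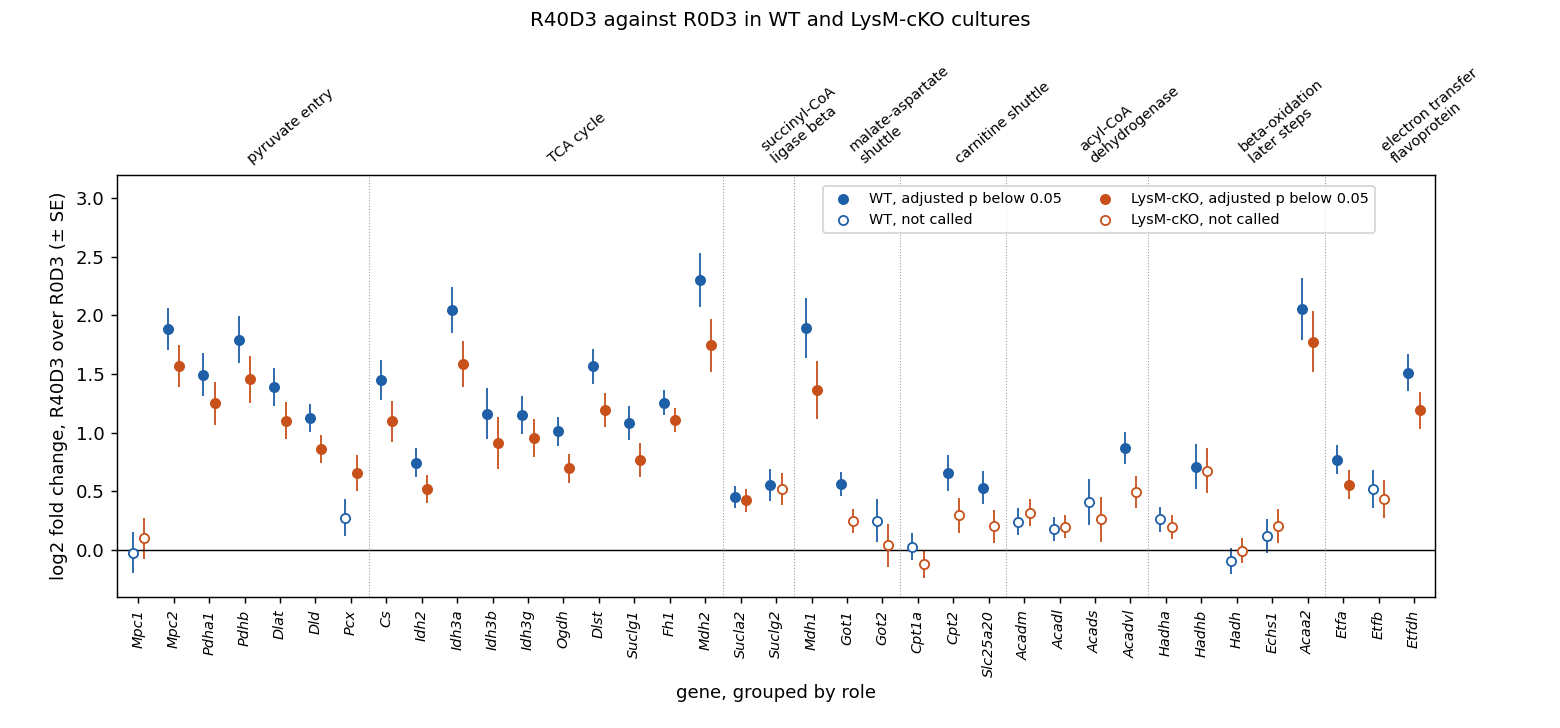
Log2 fold change of R40D3 over R0D3 (vertical axis, bars ± SE) for the 37 genes in order of role (horizontal axis), in WT (blue) and LysM-cKO (orange); filled points have an adjusted p under 0.05 in edgeR. Points of the pyruvate entry and TCA cycle classes lie above 0.5, except Mpc1 in both genotypes and Pcx in WT, and those of the fatty acid oxidation classes below 1, except Acaa2 and Etfdh.

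Of the 7 pyruvate entry genes, 5 were called higher in WT (11.4% of all genes) and 6 in LysM-cKO (6.99% of all genes): 1 subunit of the carrier and the 4 dehydrogenase genes in both, and Pcx in LysM-cKO. Mpc2, 1 of the 2 subunits of the mitochondrial pyruvate carrier, had 23.6 and 26.3 CPM in WT R0D3 and 80.8 and 103.8 CPM in WT R40D3. Its LysM-cKO values were 21.0 and 24.8 CPM at R0D3 and 59.3 and 76.8 CPM at R40D3. All 4 R40D3 libraries were above all 4 R0D3 libraries, with a log2 fold change of 1.89 ± 0.18 (SE, adjusted p = 0.00089) in WT and 1.57 ± 0.18 (adjusted p = 0.003) in LysM-cKO.

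Its partner in the carrier, Mpc1, did not follow. Mpc1 had 6.82 and 7.90 CPM in WT R0D3, 6.96 and 7.51 CPM in WT R40D3, 6.96 and 6.43 CPM in LysM-cKO R0D3 and 7.78 and 6.53 CPM in LysM-cKO R40D3. The 4 groups overlapped, with log2 fold changes of -0.02 ± 0.18 in WT and 0.10 ± 0.18 in LysM-cKO. Mpc1 shares 480 exonic bases with a transcript on the opposite strand, and the use of strand in counting is not given in the sources used here.

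The 4 pyruvate dehydrogenase genes were called in both genotypes. They are Pdha1 and Pdhb, the alpha and beta subunits of the first enzyme, Dlat, the acetyltransferase core, and Dld, the dihydrolipoamide dehydrogenase that this complex shares with the 2-oxoglutarate dehydrogenase complex. Of their log2 fold changes that of Pdhb was the largest, 1.79 ± 0.20 in WT and 1.46 ± 0.20 in LysM-cKO, and that of Dld the smallest, at 0.86 ± 0.12 in LysM-cKO. Pdhb read 52.7 and 57.0 CPM in WT R0D3 against 165.1 and 215 CPM in WT R40D3, and 50.4 and 57.4 against 120.7 and 175.0 CPM in LysM-cKO.

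Per transcript length Pcx was the lowest of the class in the cultures, as given above. In CPM Pcx had 7.22 and 6.72 CPM in WT R0D3 and 8.63 and 8.25 CPM in WT R40D3, 6.67 and 7.16 CPM in LysM-cKO R0D3, and 10.2 and 11.6 CPM in LysM-cKO R40D3. The LysM-cKO rise was called (0.66 ± 0.15 log2, adjusted p = 0.037) and the WT difference was not (0.28 ± 0.16, adjusted p = 0.292). The difference between the genotypes' fold changes was 0.38 ± 0.22 and did not pass (adjusted p = 0.9999), so Pcx was not shown to respond differently by genotype.

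In the TCA cycle, Cs, the citrate synthase, stood at 153.8 and 161.6 CPM in WT R0D3 and at 393 and 469 CPM in WT R40D3. In LysM-cKO it stood at 152.4 and 177 CPM at R0D3 and at 294 and 412 CPM at R40D3. No R40D3 library overlapped the R0D3 range, with log2 fold changes of 1.45 ± 0.17 (adjusted p = 0.0022) in WT and 1.10 ± 0.17 (adjusted p = 0.0098) in LysM-cKO.

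The widest rise of the 37 in WT was that of Mdh2, which regenerates oxaloacetate, from 101.1 and 111.1 CPM to 459 and 585 CPM, a log2 fold change of 2.30 ± 0.23 (4.92-fold, adjusted p = 0.0011). In LysM-cKO it went from 94.4 and 121.1 CPM to 286 and 437 CPM, a log2 fold change of 1.75 ± 0.23 (adjusted p = 0.0047). The cytosolic malate dehydrogenase Mdh1, its counterpart in the malate-aspartate shuttle, rose too. Mdh1 had 121.6 and 138.8 CPM in WT R0D3, 433 and 534 CPM in WT R40D3, 117.8 and 169.0 CPM in LysM-cKO R0D3 and 288 and 450.0 CPM in LysM-cKO R40D3. The log2 fold changes of Mdh1 were 1.89 ± 0.25 and 1.36 ± 0.25 in WT and LysM-cKO.

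Isocitrate dehydrogenase is a heteromer of 3 gene products in its NAD-dependent form and a single product, Idh2, in its mitochondrial NADP-dependent form. Idh3a, the catalytic subunit, had 31.6 and 33.1 CPM in WT R0D3 and 121.2 and 146.3 CPM in WT R40D3. Its LysM-cKO levels were 31.7 and 40.7 CPM at R0D3 and 90.2 and 127.7 CPM at R40D3. The rise of Idh3a, 2.05 ± 0.20 log2 in WT and 1.59 ± 0.20 in LysM-cKO, was larger in value than those of Idh3b (1.16 and 0.91), Idh3g (1.15 and 0.96) and Idh2 (0.75 and 0.52), all called. These differences between subunits were not tested.

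The remaining TCA cycle genes were also called in both genotypes. Ogdh and Dlst, the first and second components of the 2-oxoglutarate dehydrogenase complex, changed by 1.01 and 1.57 log2 in WT and by 0.70 and 1.20 in LysM-cKO. Fh1, the fumarase, changed by 1.26 and 1.11, with the smallest p of the 37 in both genotypes.

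Upstream of the annotated start of Mdh2, the member with the widest WT rise, the bases before its first exon at chr5:135778399-135778479 (plus strand, RefSeq promoter table, GRCm38.p6) read as follows, shown because it and its neighbours in the cycle moved together.
Mdh2: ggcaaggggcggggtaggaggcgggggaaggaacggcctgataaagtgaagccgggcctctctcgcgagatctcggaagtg
Promoter windows of 300 bases were found for 35 of the 37 genes, in 42 windows. TGACGTCA, the cyclic AMP response element, was present on either strand in 4 of these windows, against 1.79% of all 32851 windows. These 4 windows belonged to only 2 genes, Ogdh and Mdh2. CCGGAAG, an ETS site, was in 6 windows of 6 genes (8.86% of all windows). GCGCA followed by any base and GCGC, bound by nuclear respiratory factor 1, was in 4 windows of 4 genes (4.6% of all). CACGTG, an E-box, was in 4 windows of only 2 genes, Pcx and Ogdh (7.15% of all). The matches name letters in these windows only. In the stretch printed for Mdh2 none of the searched motifs occurs.

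Succinyl-CoA ligase was followed by subunit. Suclg1 encodes the alpha subunit common to both forms, Sucla2 the beta subunit of the ATP-forming enzyme and Suclg2 the beta subunit of the GTP-forming enzyme. The difference of R40D3 over R0D3 was smaller in value for both beta genes than for the alpha gene, which was not tested. Stretches before the RefSeq start of each gene are printed, up to the first base of an annotated exon: Suclg1 at chr6:73248255-73248381 (plus strand), Sucla2 at chr14:73552536-73552631 (plus strand) and Suclg2 at chr6:95718847-95719096 (minus strand), from RefSeq on GRCm38.p6. The RefSeq start of Sucla2 lies inside the span that GENCODE gives the gene, chr14:73525319-73596142, so its stretch is not upstream of that annotation and differs in position from the other two.
Suclg1: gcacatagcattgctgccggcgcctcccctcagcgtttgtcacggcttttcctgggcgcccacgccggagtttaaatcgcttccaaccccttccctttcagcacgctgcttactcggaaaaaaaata
Sucla2: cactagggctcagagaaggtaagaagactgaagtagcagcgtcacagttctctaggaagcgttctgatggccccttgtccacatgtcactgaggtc
Suclg2: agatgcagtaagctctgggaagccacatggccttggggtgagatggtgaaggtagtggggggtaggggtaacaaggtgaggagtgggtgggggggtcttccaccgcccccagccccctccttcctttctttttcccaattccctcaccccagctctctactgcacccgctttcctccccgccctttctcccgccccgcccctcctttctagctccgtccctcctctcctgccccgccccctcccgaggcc
None of the 6 searched motifs occurs in these 3 stretches, although the full Sucla2 window, which runs on into exon sequence, holds the nuclear respiratory factor 1 motif.

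Suclg1 had 39.7 and 40.4 CPM in WT R0D3, 77.7 and 92.04 CPM in WT R40D3, 38.4 and 42.0 CPM in LysM-cKO R0D3 and 59.9 and 77.0 CPM in LysM-cKO R40D3. All R40D3 libraries were above all R0D3 libraries, with log2 fold changes of 1.08 ± 0.14 (adjusted p = 0.003) and 0.77 ± 0.14 (adjusted p = 0.017) in WT and LysM-cKO.

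Sucla2 had 41.0 and 45.5 CPM in WT R0D3, 56.1 and 62.2 CPM in WT R40D3, 40.8 and 43.8 CPM in LysM-cKO R0D3 and 56.9 and 56.8 CPM in LysM-cKO R40D3. Its groups did not overlap between R40D3 and R0D3, and the 2 LysM-cKO R40D3 libraries were close to each other. The rise was called in both genotypes, 0.45 ± 0.10 log2 in WT (adjusted p = 0.019) and 0.43 ± 0.10 in LysM-cKO (adjusted p = 0.035).

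Suclg2 had 27.3 and 30.7 CPM in WT R0D3, 38.7 and 46.2 CPM in WT R40D3, 25.7 and 30.9 CPM in LysM-cKO R0D3 and 39.0 and 42.1 CPM in LysM-cKO R40D3. Again the R40D3 and R0D3 libraries did not overlap. The WT rise of 0.55 ± 0.14 log2 was called (adjusted p = 0.032), and the LysM-cKO value of 0.52 ± 0.14 missed the threshold (adjusted p = 0.057) but passed with the replicate block (adjusted p = 0.003). A near-identical gene, Gm15163, which matches Suclg2 at 98.9% over 1302 bases, held 296 counts over the 8 cultures, so a share of the Suclg2 reads is uncertain.

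**Figure D2:**
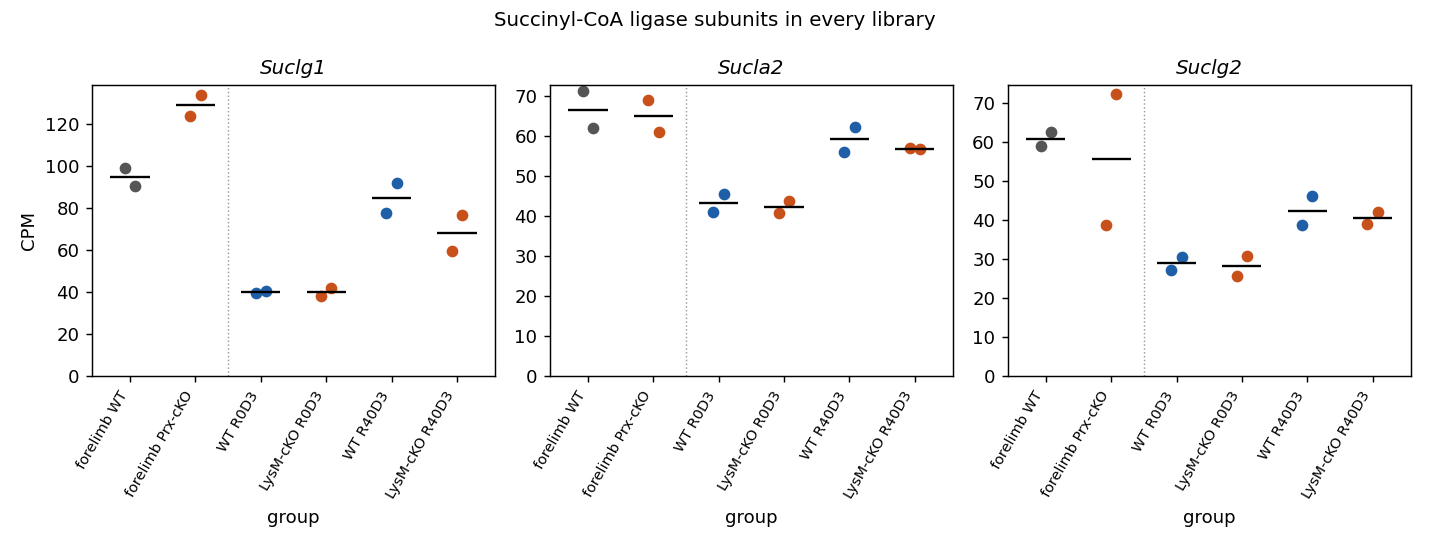
CPM (vertical axis, from 0) of Suclg1, Sucla2 and Suclg2 in every library, by group (horizontal axis); each point is 1 library and the bar is the mean of 2. Suclg1 at R40D3 reached 59.9 to 92.04 CPM against 38.4 to 42.0 CPM at R0D3, a wider step than that of either beta subunit, and the Prx-cKO forelimbs split for Suclg2.

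The balance of the 2 beta subunits was tested as the log2 ratio of Sucla2 to Suclg2 counts, each library giving 1 value. It was 0.48 ± 0.06 (SD, n = 4) at R40D3 and 0.58 ± 0.07 (SD, n = 4) at R0D3, over both genotypes. The difference of -0.10 did not pass the exact permutation test over libraries (two-sided, p = 0.114, the smallest p possible being 0.0286). Within the 4 pairs of same genotype and replicate number the ratio was lower at R40D3 in all 4, by differences of -0.05 to -0.14. The exact permutation test over these pairs gave p = 0.125, the smallest that 4 pairs allow, so the paired form cannot reach 0.05. LysM-cKO and WT cultures differed by 0.01 (exact permutation test, p = 0.914, or 0.625 over pairs). R40D3 and R0D3 libraries of the same genotype and number deviated together over all genes (r = 0.609 in LysM-cKO and 0.465 in WT). The 4 values per genotype, and the 4 pairs, are therefore not 4 independent replicates in this comparison. Per coding transcript length, Sucla2 was 2.03 to 2.40 times Suclg2 in the 8 cultures, and 1.56 to 1.84 times on the union of exons.

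In the malate-aspartate shuttle Mdh1, given above, was called in both genotypes. Got1, the cytosolic aspartate aminotransferase, was called in WT (0.56 ± 0.10 log2, adjusted p = 0.010) and not in LysM-cKO (0.25 ± 0.10, adjusted p = 0.19). The interaction of genotype with R40D3 had its smallest p among the 37 at Got1, -0.31 ± 0.14 log2, and did not pass (adjusted p = 0.9999). Got2, its mitochondrial partner, was called in neither genotype, with 0.25 and 0.04 log2, and has near-identical copies.

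The fatty acid oxidation genes were more mixed. Cpt1a had 116.7 and 113.5 CPM in WT R0D3, 125.6 and 108.8 CPM in WT R40D3, 124.7 and 151.0 CPM in LysM-cKO R0D3 and 129.7 and 124.1 CPM in LysM-cKO R40D3. The groups overlapped, at 0.03 ± 0.12 log2 in WT and -0.12 ± 0.12 in LysM-cKO. Downstream of it, Slc25a20, the carnitine-acylcarnitine carrier, and Cpt2, the inner carnitine palmitoyltransferase, were called in WT (0.53 and 0.66 log2) and not in LysM-cKO (0.20 and 0.30 log2). The interaction did not pass for either gene (adjusted p = 0.9999 for both).

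Of the 4 acyl-CoA dehydrogenases, which take fatty acids of different chain length, Acadvl, for very long chains, was called in WT (0.87 ± 0.14 log2, adjusted p = 0.0056). In LysM-cKO Acadvl had 0.49 ± 0.14 log2 (adjusted p = 0.063, or 0.0053 with the block). Acadl, Acadm and Acads, for long, medium and short chains, were not called in either genotype, with 0.18, 0.24 and 0.41 log2 in WT. With the block Acads was called in WT (adjusted p = 0.016) and Acadm in LysM-cKO (adjusted p = 0.024). Acadvl shares 1151 exonic bases with Dvl2 on the opposite strand.

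Acadm is shown with its upstream stretch because it holds AAGGTCA, the half-site of nuclear receptors that regulate this pathway, read on the opposite strand and printed in capitals. The stretch lies at chr3:153944644-153944893 (minus strand, RefSeq, GRCm38.p6).
Acadm: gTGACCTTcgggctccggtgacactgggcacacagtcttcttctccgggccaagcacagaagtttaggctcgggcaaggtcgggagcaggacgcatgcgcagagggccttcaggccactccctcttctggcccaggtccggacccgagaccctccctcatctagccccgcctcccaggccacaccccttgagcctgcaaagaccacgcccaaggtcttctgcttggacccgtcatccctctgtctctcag
The half-site was found in 3 of the 42 windows, those of Ogdh, Got1 and Acadm, against 4.72% of all windows. The longer estrogen-related receptor element TNAAGGTCA, which contains it, was in 0 of 42 against 1.28% of all.

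The later steps of beta-oxidation held 1 gene that stood out in value. Acaa2, the mitochondrial 3-ketoacyl-CoA thiolase, had 33.3 and 39.7 CPM in WT R0D3 and 127.0 and 176.8 CPM in WT R40D3. In LysM-cKO it had 31.1 and 32.0 CPM at R0D3 and 80.8 and 135.8 CPM at R40D3. The log2 fold changes were 2.06 ± 0.26 (adjusted p = 0.0026) and 1.78 ± 0.26 (adjusted p = 0.0074), the latter the largest of the 37 in LysM-cKO. Hadh and Echs1, the short-chain hydroxyacyl-CoA dehydrogenase and enoyl-CoA hydratase, were not called in either genotype and ranged from -0.09 to 0.20 log2.

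Hadha and Hadhb encode the alpha and beta subunits of the mitochondrial trifunctional protein and lie head to head on chromosome 5, with 85 bases between their annotated starts at chr5:30155163-30155247. That shared interval, printed on the plus strand from RefSeq on GRCm38.p6, is given because 1 stretch serves both starts, and it holds none of the searched motifs.
Hadha-Hadhb: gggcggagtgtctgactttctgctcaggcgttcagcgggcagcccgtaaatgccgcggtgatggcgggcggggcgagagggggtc
Hadhb had 25.4 and 26.2 CPM in WT R0D3 and 39.4 and 45.0 CPM in WT R40D3, and was called (0.71 ± 0.19 log2, adjusted p = 0.043). Hadha had 165.5 and 161.9 CPM in WT R0D3 and 197.0 and 195.4 CPM in WT R40D3, and was not called (0.26 ± 0.10 log2, adjusted p = 0.137) except with the block (adjusted p = 0.046). In LysM-cKO neither was called, at 0.68 and 0.20 log2, and with the block Hadhb was (adjusted p = 0.0047). The ratio of Hadhb to Hadha counts, examined after its values were seen, was 0.125 to 0.162 in the 4 R0D3 libraries and 0.184 to 0.230 in the 4 R40D3 libraries, and 0.483 to 0.626 in the forelimbs.

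In the electron transfer flavoprotein branch, which hands electrons from acyl-CoA dehydrogenases to ubiquinone, Etfdh, the ubiquinone oxidoreductase, was called in WT (1.51 ± 0.16 log2, adjusted p = 0.0014) and LysM-cKO (1.19 ± 0.16, adjusted p = 0.0053). Etfa, the alpha subunit, was called in both as well, at 0.77 and 0.56 log2. Etfb, the beta subunit, read 0.52 and 0.43 log2 and passed only with the block (adjusted p = 0.011 and 0.033). Etfb overlaps Gm45233 on the same strand, which held 1 count over the 8 cultures.

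**Figure D3:**
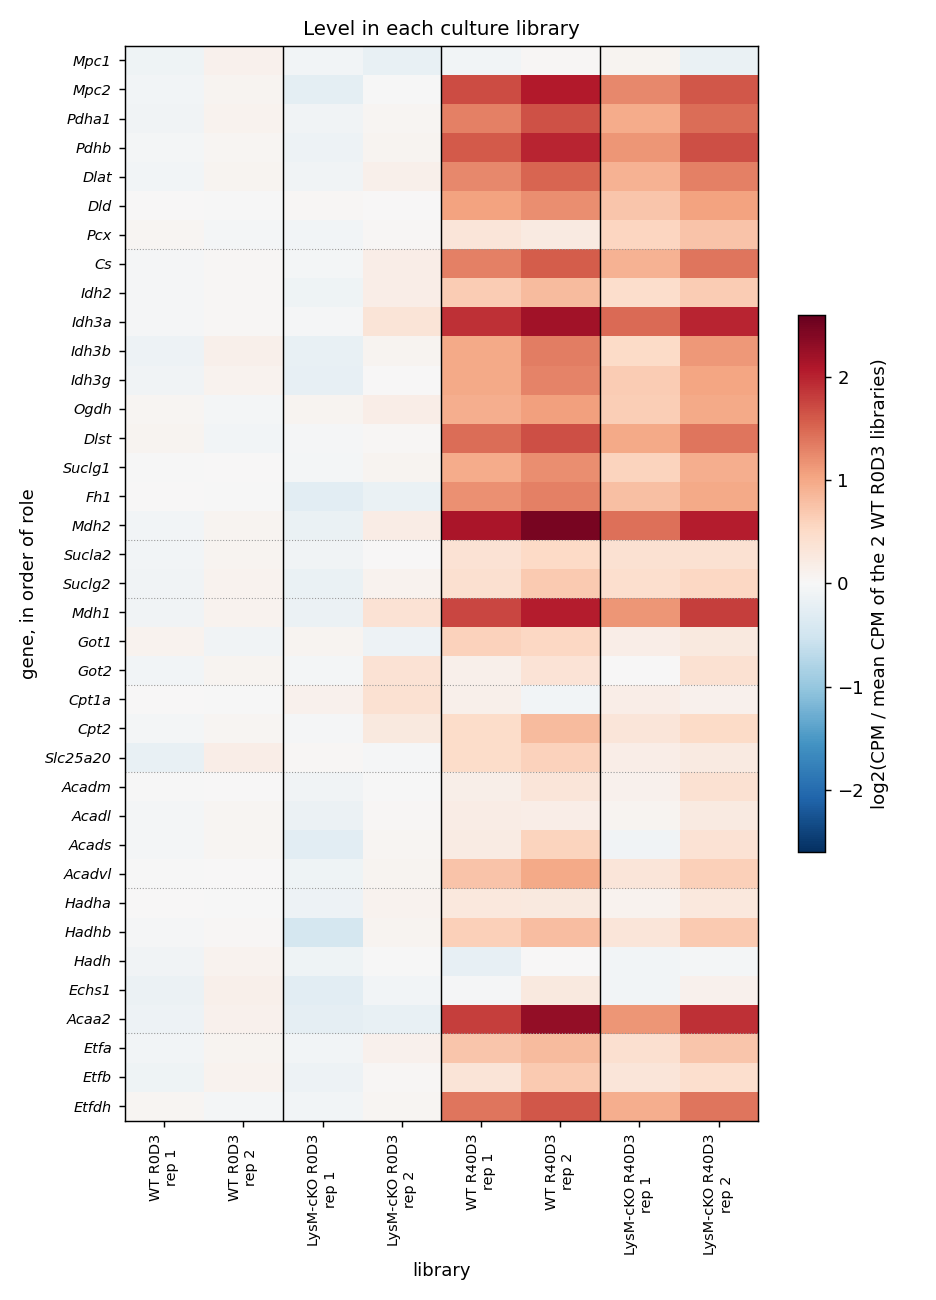
Heat map of the 37 genes (rows, in order of role) in the 8 culture libraries (columns), coloured by log2 of CPM over the mean CPM of the 2 WT R0D3 libraries. The R40D3 columns are redder across the TCA cycle and Mdh1 rows and the pyruvate entry rows, except Mpc1, and Pcx in WT changes little. In most rows the LysM-cKO R40D3 replicate 1 column is paler than the other R40D3 columns.

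Of the 37 genes, 20 were called in both genotypes, 6 in WT alone, 1 in LysM-cKO alone and 10 in neither. The 6 were Suclg2, Got1, Cpt2, Slc25a20, Acadvl and Hadhb, and the 1 was Pcx. The matching shares of all genes tested are not given here. The difference between the genotypes was tested by the interaction, which called 0 of 37 genes (0% of all genes tested; 0 also with the block and with DESeq2), with 0 of 37 at an unadjusted p under 0.05 (0.82% of all genes above and 0.948% below). Its values were below 0 for 31 of 37 genes, beside 53% of all genes (47% above 0), with a median of -0.24. That median rested on single libraries: it was -0.03, with 20 genes below 0, without LysM-cKO R40D3 replicate 1, -0.10 without WT R40D3 replicate 2 and -0.12 without LysM-cKO R0D3 replicate 2. It was -0.40 without LysM-cKO R40D3 replicate 2. The median log2 fold change of R40D3 over R0D3 in WT was 0.68 without WT R40D3 replicate 2. In LysM-cKO it was 0.45 without LysM-cKO R40D3 replicate 2.

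At R40D3 the LysM-cKO cultures were lower than WT in value for 33 of the 37 genes, but 0 passed the test, against 0.0143% of all genes called lower and 0% called higher. The median log2 fold change was -0.26, beside -0.01 over all genes, of which 51.4% were below 0 and 48.6% above. At an unadjusted p under 0.05, 7 were lower and 1 higher, against 3.47% and 4% of all genes. In 10 genes both LysM-cKO libraries were below both WT libraries (18.9% of all genes), and in Pcx both were above (19.7% of all). With the block 0 of 37 were called (0.121% of all genes higher and 0.0927% lower), and with DESeq2 also 0 (0.0486% and 0.0162%).

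Without the block the 3 smallest p belonged to Fh1, Got1 and Acadvl, and none passed. With the block their adjusted p in edgeR were 0.098, 0.117 and 0.103. The smallest of the 37 were then 0.074 for Mpc2 and 0.083 for Mdh2, and again none passed. The values that follow are without the block. Fh1 had 116.4 and 127.3 CPM in WT against 87.3 and 101.6 CPM in LysM-cKO, at -0.37 ± 0.10 log2 (adjusted p = 0.648). Got1 had 113.5 and 108.8 CPM against 85.4 and 89.3 CPM, at -0.35 ± 0.10 log2 (adjusted p = 0.648). Acadvl had 70.8 and 84.5 CPM against 52.99 and 65.1 CPM, at -0.40 ± 0.13 log2 (adjusted p = 0.648).
In all 3 genes the 2 LysM-cKO libraries lay below the 2 WT libraries.

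The TCA cycle genes were below 0 in 10 of 10, from -0.19 for Idh2 to -0.53 for Mdh2. Within both same-numbered pairs 10 of 10 were lower, a count for which the share of all genes is not given here. Cs, with the levels given above, differed by -0.29 ± 0.17 log2 (adjusted p = 0.680) and its groups overlapped. Suclg1 differed by -0.31 ± 0.14 log2 (adjusted p = 0.648) without overlap. Sucla2 and Suclg2 stayed closer to 0, at -0.06 ± 0.10 and -0.07 ± 0.14 log2 (adjusted p = 0.882 and 0.901), and both overlapped. Cpt1a, at 0.11 ± 0.12 log2 (adjusted p = 0.791), also overlapped. Pcx was the highest, at 0.37 ± 0.15 log2 (adjusted p = 0.648).

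These differences moved with single libraries. LysM-cKO replicate 1 was the lowest of the 4 R40D3 libraries for 31 of 37 genes (31.9% of all genes tested), and WT replicate 2 the highest for 29 (30.4% of all). The summed osteoclast markers have the same lowest and highest library. Both of these extremes were met by 26 of the 37 genes (19.2% of all), and the full order of the summed markers by 9 (8.13% of all). Without LysM-cKO replicate 1 the median of the 37 was -0.05, and without WT replicate 2 it was -0.12. It was -0.41 without LysM-cKO replicate 2 and -0.39 without WT replicate 1. The part of the osteoclast marker levels in these differences was not tested.

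**Figure D4:**
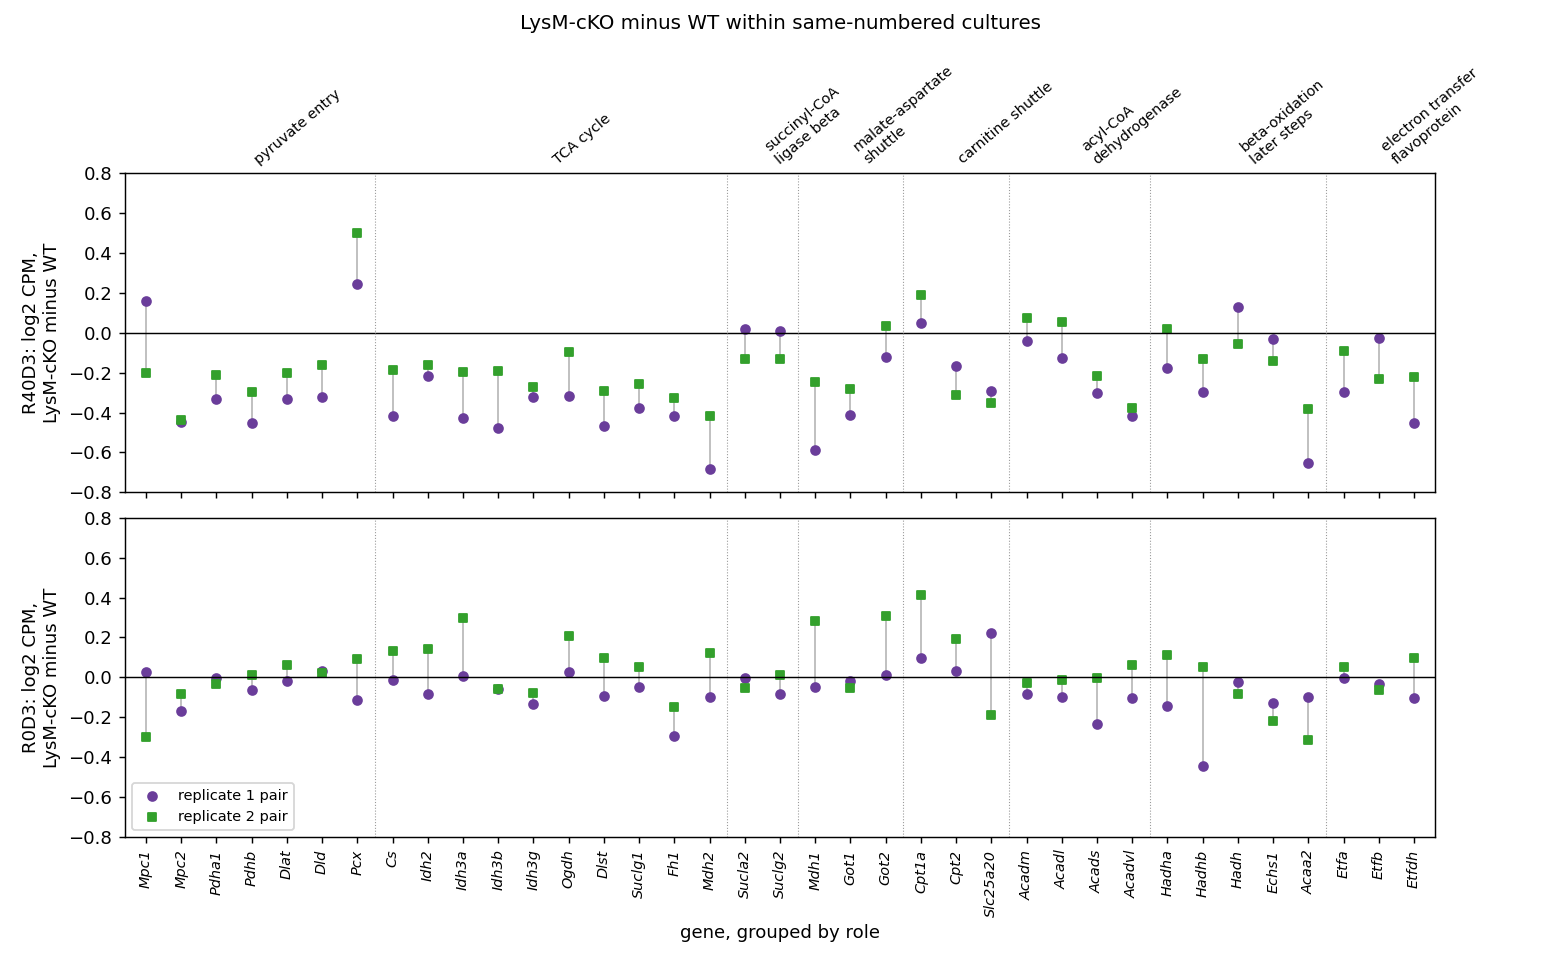
Difference in log2 CPM, LysM-cKO minus WT (vertical axis), within the replicate 1 pair (circles) and the replicate 2 pair (squares) for the 37 genes in order of role, at R40D3 (upper panel) and R0D3 (lower panel). At R40D3 27 genes are below 0 in both pairs (the share of all genes is not given here), and at R0D3 the points scatter on both sides of 0.

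At R0D3 the genotypes were close. None of the 37 was called, against 0.0143% of all genes called lower and 0% higher, and 0 had an unadjusted p under 0.05 (3.02% of all genes higher and 1.4% lower). With the block 0 were called (0.00713% of all genes higher and 0.0143% lower), as with DESeq2 (0.0162% and 0.0121%). The median log2 fold change was -0.02, with 14 genes above 0 and 23 below (51.7% and 48.1% of all genes). This split turned with single libraries: without LysM-cKO replicate 1, 29 were above and 8 below (median 0.05), and without LysM-cKO replicate 2, 5 were above and 32 below (median -0.10). Without WT replicate 2, 21 were above and 16 below (median 0.03), and without WT replicate 1 the median was -0.04. Non-overlapping groups occurred in 3 genes higher in LysM-cKO (17.5% of all genes) and 2 lower (14.8% of all).

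The smallest p at R0D3 were those of Cpt1a (0.26 ± 0.12 log2), Fh1 (-0.22 ± 0.10) and Echs1 (-0.18 ± 0.15), with an adjusted p of 0.9974 each, so none passed. Fh1 had 51.6 and 50.4 CPM in WT and 42.1 and 45.5 CPM in LysM-cKO. Echs1 had 74.97 and 91.6 CPM in WT and 68.6 and 78.8 CPM in LysM-cKO. The Fh1 and Cpt1a groups did not overlap, whereas those of Echs1 did.
Cs, Pcx, Suclg1, Sucla2 and Suclg2 lay between -0.03 and 0.06 log2.

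In the forelimb, the Prx-cKO values were higher than WT for 33 of 37 genes, and 0 were called (edgeR; 0% of the 19987 genes tested were called in either direction). The median log2 fold change was 0.32, beside -0.03 over all genes, of which 47.2% were above 0 and 52.8% below. At an unadjusted p under 0.05, 12 were higher and 0 lower, against 5.87% and 4.61% of all genes. In 25 genes both Prx-cKO libraries were above both WT libraries (22.2% of all), and in 0 both were below (21% of all). DESeq2 called 0 of the 37, against 0.45% of its tested genes higher and 0.484% lower.

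By class, the TCA cycle was above 0 in 10 of 10 genes (median 0.42), the fatty acid oxidation genes in 13 of 15 (median 0.32) and pyruvate entry in 7 of 7 (median 0.13). The 2 ligase beta subunits were below 0. The genes with the smallest p were Mdh2, Fh1 and Acadvl, none of which passed. Mdh2 had 228 and 221 CPM in WT and 341 and 376 CPM in Prx-cKO, at 0.68 ± 0.15 log2 (adjusted p = 0.393). Fh1 had 99.7 and 98.2 CPM against 157.6 and 150.1 CPM, at 0.64 ± 0.14 log2 (adjusted p = 0.393). Acadvl had 39.5 and 42.0 CPM against 60.4 and 68.1 CPM, at 0.66 ± 0.16 log2 (adjusted p = 0.414).
In all 3 the Prx-cKO libraries exceeded both WT libraries.

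Cpt1a had 19.7 and 25.5 CPM in WT and 40.5 and 38.2 CPM in Prx-cKO, the largest value of the 37 at 0.80 ± 0.20 log2 (adjusted p = 0.414). Cs had 210.7 and 248 CPM in WT and 266 and 308 CPM in Prx-cKO, at 0.32 ± 0.17 log2 (adjusted p = 0.557). Pcx had 28.9 and 35.4 CPM in WT and 36.1 and 42.8 CPM in Prx-cKO, at 0.30 ± 0.19 log2 (adjusted p = 0.635).
The Prx-cKO libraries of these 3 genes were above both WT libraries, by a narrow margin for Pcx.

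The ligase subunits differed among themselves in the forelimb. Suclg1 had 99.3 and 90.7 CPM in WT and 124.0 and 133.9 CPM in Prx-cKO, without overlap, at 0.44 ± 0.15 log2 (adjusted p = 0.458). Sucla2 had 71.2 and 62.0 CPM in WT and 69.01 and 60.9 CPM in Prx-cKO, overlapping, at -0.04 ± 0.16 log2 (adjusted p = 0.955). Suclg2 had 59.1 and 62.6 CPM in WT but 38.9 and 72.4 CPM in Prx-cKO, at -0.13 ± 0.31 log2 (adjusted p = 0.909).
The 2 Prx-cKO libraries of Suclg2 fell on opposite sides of WT, and the log2 ratio of Sucla2 to Suclg2 was accordingly 0.83 and -0.25 in Prx-cKO against 0.27 and -0.01 in WT. With 2 libraries a group the exact permutation test of that ratio gave p = 1 and cannot give less than 0.333.

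**Figure D5:**
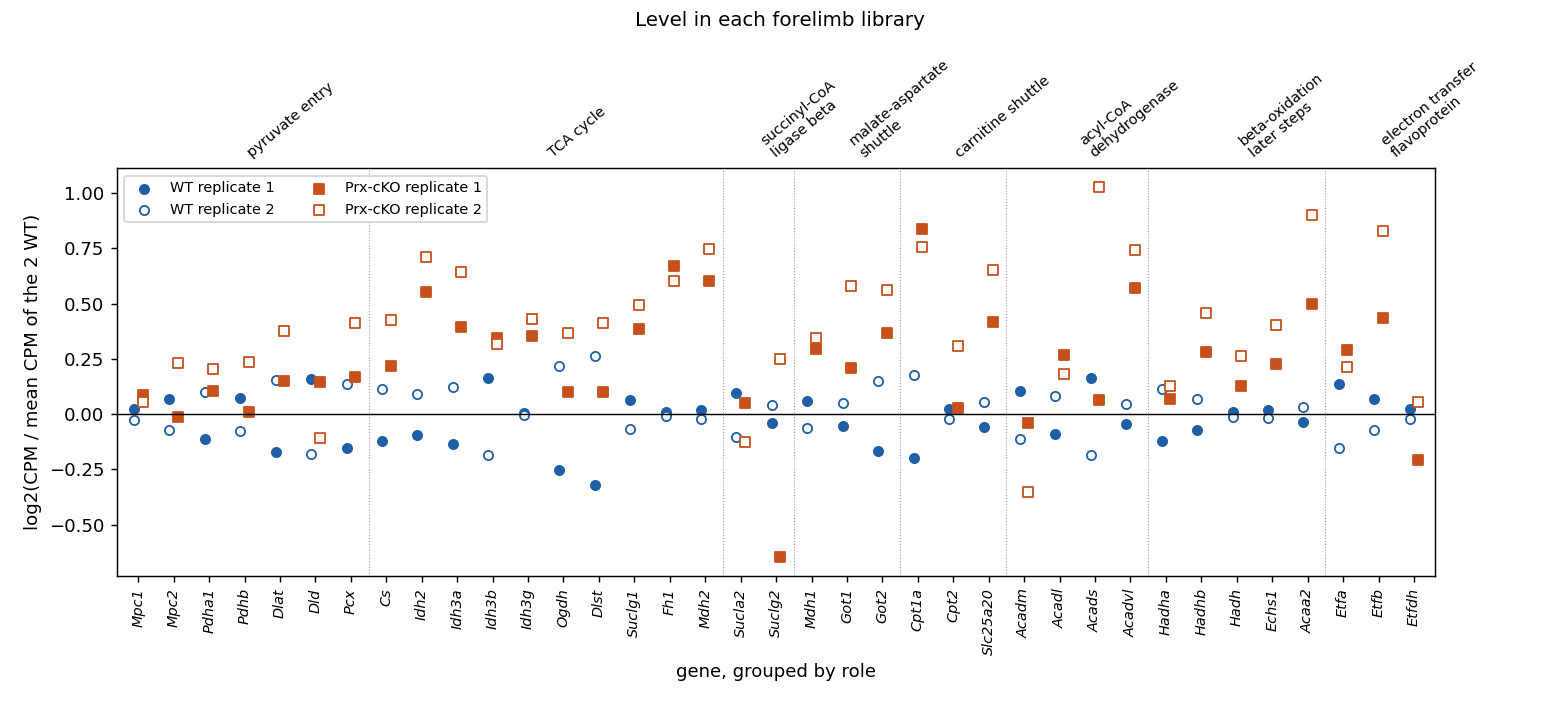
Log2 of CPM over the mean CPM of the 2 WT forelimbs (vertical axis) for the 37 genes in order of role (horizontal axis), with 1 point per library; filled and open symbols are replicates 1 and 2, circles WT and squares Prx-cKO. The Prx-cKO squares lie above the circles in 25 genes, and replicate 2 is the higher of the Prx-cKO pair in 28.

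Summed levels of cell type markers differed with genotype in the forelimb. Those of skeletal muscle (9 genes) were 1072 and 476 CPM in Prx-cKO against 399 and 365 CPM in WT, and chondrogenic markers (8 genes) 389 and 313 CPM against 912 and 1019 CPM. Limb mesenchyme markers (8 genes) were 1047 and 1116 CPM against 1506 and 1742 CPM, and endothelial markers (6 genes) 174.7 and 176.6 CPM against 126.7 and 135.2 CPM. Their part in the levels of the 37 genes was not tested. Prx-cKO replicate 1 was the lower of the 2 Prx-cKO libraries for 28 of the 37 genes (50.3% of all genes). The median of the 37 was 0.22 without Prx-cKO replicate 2 and 0.40 without replicate 1.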

How the data were processed

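For the 12 mouse libraries the deposited values are counts of reads by Ensembl identifier, whole and not normalized. Per the submitters' processing notes, FastQC 0.11.2, Trimmomatic 0.36, HISAT2 2.1.0, DESeq2 1.12.4 and GRCm38 were used; the counting tool, annotation and use of strand are not given in the sources used here. Positions and lengths came from GENCODE M21, promoter sequence from RefSeq (GRCm38.p6).

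Genes kept by filterByExpr were scaled by TMM and tested with the edgeR 4.0.16 quasi-likelihood test (R 4.3.3, legacy = FALSE, two-sided, Benjamini-Hochberg over all genes, calls at adjusted p under 0.05). A model held the 8 cultures and a separate one the 4 forelimbs. CPM use the scaled library sizes. DESeq2 1.42.0, other scalings and filters, a replicate block and leaving out each library were alternatives. Motifs were searched on both strands.

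In the cultures same-numbered libraries deviated together in all 6 pairs of groups (r 0.343 to 0.609), so the numbers were taken as pairs. In simulated counts with 200 genes changed by a log2 of 1, the test recovered 48 in the forelimb comparison (19397 genes, 3 false calls) and 152 in LysM-cKO against WT at R40D3 (13782 genes, 6 false calls).

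The members and lists were chosen with earlier results of these data known. Values of every library were to be named for Sucla2, Suclg2, Suclg1, Cs, Pcx and Cpt1a, for up to 5 called genes with the largest rise or fall per comparison, or, with none called, for the 3 smallest p; Mpc1, Pdhb in WT, Hadha and Hadhb were added after their values were seen. From 6 lists of other genes, up to 3 called genes per list and comparison were named, or, with none called, the one with the smallest p; some of these are not reported here.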

Additional observations from a re-analysis of the deposited data

Results flagged for a closer look

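Dld, the dihydrolipoamide dehydrogenase, was singled out because its genotype difference pointed in opposite directions in the 2 culture conditions with no overlap in either. At R40D3 it had 166.4 and 185.6 CPM in WT against 133.3 and 165.8 CPM in LysM-cKO, and at R0D3 80.8 and 80.6 CPM in WT against 82.7 and 81.7 CPM in LysM-cKO. The interaction was -0.26 ± 0.16 log2 and did not pass (edgeR, adjusted p = 0.9999). At R0D3 the genotypes differed by only 0.03 ± 0.12 log2.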

How the results depend on the processing

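The counts of called genes were 0 in the forelimb, in both genotype comparisons of the cultures and in the interaction under every alternative run, DESeq2 and the replicate block included. For WT R40D3 against R0D3 the count of 26 ranged from 16 to 23 when 1 library was left out, with 17 without WT R0D3 replicate 1 and 16 without WT R40D3 replicate 2. For LysM-cKO the median of 0.66 ranged from 0.45 to 0.75, and was lowest without LysM-cKO R40D3 replicate 2. When only the 4 compared LysM-cKO libraries were fitted, 11 genes were called instead of 21. The matching share of all genes is not given here. With the replicate block the counts were 29 and 26, and 0 in the forelimb. There the 1 pair of groups correlated at r = 0.261, and the numbers were not taken to pair the samples. Yet the main axis of variation in the forelimb (first principal component, 46.3% of the variance) split replicate 1 from replicate 2 in both genotypes. Replicates 1 and 2 lay at -65.2 and 68.0 in WT, and at -26.7 and 23.9 in Prx-cKO. In WT 16 genes and in LysM-cKO 10 genes were called under every alternative, among them Mpc2, Pdhb, Dlst, Fh1, Mdh2 and Etfdh. For all genes tested, the share called under every alternative is not given here. The difference in log2 ratio of Sucla2 to Suclg2 ranged over left-out libraries from -0.12 to -0.07 for R40D3 against R0D3, from -0.04 to 0.04 between genotypes of the cultures, and from -0.38 to 0.70 in the forelimb. Over pairs of same-numbered libraries, a form chosen after seeing the data, the first of these was -0.10 and the second 0.01, and neither passed the exact permutation test. No called value changed sign. The causes of these shifts were not tested. With 2 libraries a group, differences smaller than the spread between them could not be detected, and a lone library left in a group is assumed to vary like the others.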

Other observations

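Genes of the same pathways outside the 37 were counted by 6 lists, to be read against 11.4% of all genes called higher and 5.52% lower in WT, and 6.99% and 3.15% in LysM-cKO. In WT R40D3 against R0D3, the TCA and anaplerosis list had 6 higher and 2 lower of 19 tested. Sdha, the flavoprotein subunit of succinate dehydrogenase, rose by 1.39 log2, and Me2, a mitochondrial malic enzyme, by 1.70 log2. The pyruvate dehydrogenase regulators had 4 higher and 1 lower of 8. Among these Pdk3 and Pdk1, kinases that inhibit the complex, rose by 2.26 and 2.03 log2, and Pdhx, its binding component, by 1.05 log2. Mitochondrial fatty acid oxidation genes beyond the 37 had 10 higher and 1 lower of 24, with Acat1, Acad11 and Eci1 at 1.29, 1.22 and 1.08 log2.

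In fatty acid uptake and lipolysis 0 were higher, 4 lower and 6 not called of 10 in WT. Cd36, a fatty acid transporter, stood at 1931 and 1787 CPM in WT R0D3 and at 354 and 295 CPM in WT R40D3. Lpl, the lipoprotein lipase, fell by 2.50 on the log2 scale and Fabp4, a fatty acid binding protein, fell by 1.42. In peroxisomal oxidation 1 was higher (Crot, 0.37 log2) and 1 lower (Abcd2, -1.12 log2) of 11. Of 5 transcription factors and coactivators tested, Ppargc1b rose from 2.74 and 1.24 CPM to 35.8 and 37.8 CPM, Esrra rose by 0.95 log2 and Pparg fell by 0.95.

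In LysM-cKO the counts for R40D3 against R0D3 were 5 higher and 0 lower of 19 in the TCA and anaplerosis list, 2 and 0 of 8 pyruvate dehydrogenase regulators, and 8 and 0 of 24 in mitochondrial oxidation. They were 0 and 1 of 11 in peroxisomal oxidation, 0 and 3 of 10 in uptake and lipolysis, and 2 and 1 of 5 transcription factors. With the replicate block the LysM-cKO counts were 8 higher and 2 lower in the TCA and anaplerosis list, 4 and 1 among the regulators, 10 and 1 in mitochondrial oxidation, 2 and 2 in peroxisomal oxidation, 0 and 5 in uptake and lipolysis, and 3 and 1 of the transcription factors. In WT they were 8 and 3, 5 and 1, 12 and 1, 2 and 4, 0 and 4, and 3 and 1 in the same order. Called genes of these lists were Sdha (1.13 log2), Sdhd (0.91), Pdk3 (1.86), Pdk1 (1.44), Eci1 (0.86), Acot13 (0.71), Acad10 (1.10), Abcd2 (-0.87), Cd36 (-2.30), Lpl (-2.59), Fabp4 (-1.24), Ppargc1b (3.70), Pparg (-1.30) and Esrra (0.77). No gene of these lists was called between genotypes in the forelimb or the cultures, or in the interaction. The smallest p per list in the forelimb were those of Pdk1 (-0.43 log2), Slc25a10 (0.78), Cpt1c (0.92), Pecr (0.58), Cd36 (1.80) and Esrra (0.70), none of which passed. At R40D3 they were those of Pdk3 (-0.45 log2), Sdhd (-0.37), Acadsb (0.31), Hsd17b4 (0.21), Cd36 (0.27) and Pparg (-0.49), none of which passed. At R0D3, leaving aside the TCA and anaplerosis list, they were those of Pdpr (0.17 log2), Acacb (1.15), Ehhadh (0.23), Fabp3 (0.67) and Pparg (-0.14), and in the interaction those of Pdk3 (-0.41), Idh1 (0.30), Acadsb (0.22), Hsd17b4 (0.18), Lipe (0.27) and Pparg (-0.35), and again none passed.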
